A study of Homo sapiens with 12 samples.

Results

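Genes for 10 secreted growth factors were followed in proliferating and senescent human fibroblasts. They were HGF, FGF2, FGF7, VEGFA, VEGFC, PDGFA, PDGFC, EREG, HBEGF and NRG1, chosen by name as the 10 members out of 38716 gene symbols in the count tables. The cells were IMR90, primary fetal lung fibroblasts, grown either as proliferating cultures (Pro) or passaged until they stopped dividing. The latter state is called replicative senescence (Sen). Each state had 3 independent replicates, and each of the 6 lysates gave 1 RNA-seq library and 1 Ribo-seq library, so that 12 libraries were available. The description of the series names more than 1 isolate of the line without saying which replicate came from which, so isolate and state cannot be told apart where the isolates were not balanced.

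Growth factors are proteins that a cell releases to act on receptors of its neighbours or of itself. All 10 bind receptor tyrosine kinases, which signal through the ERK and AKT pathways to growth, survival and migration. HGF is the scatter factor that activates MET. FGF2 and FGF7 belong to the fibroblast growth factors, VEGFA and VEGFC drive the growth of blood and lymphatic vessels, and PDGFA and PDGFC act on platelet-derived growth factor receptors of mesenchymal cells. EREG (epiregulin), HBEGF (heparin-binding EGF-like growth factor) and NRG1 (neuregulin) are EGF-family ligands made as membrane-bound precursors and cut loose by proteases. Senescent fibroblasts release many proteins of this kind, together known as the senescence-associated secretory phenotype, and the comparison asks how the mRNA and the ribosome occupancy of these genes differ between the states.

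Ribo-seq sequences the fragments of mRNA that a ribosome protects from nuclease (RPF), here counted over the coding sequence (CDS). RNA-seq reads were counted over the 5′UTR, CDS and 3′UTR together and are called mRNA below. Levels are counts per 1000000 reads after scaling of the libraries (CPM), and a gene was called changed at an adjusted p under 0.15 in edgeR's quasi-likelihood test over all genes. The RNA-seq libraries held 7902427 to 14144455 reads over mRNA regions. The Ribo-seq libraries were far smaller, and Pro 1 and Sen 2 were shallow, with 54421 and 54708 CDS reads against 583798 to 1718521 in the others. At a floor of 3 reads, a level under 52.1 CPM in Pro 1 or under 52.7 CPM in Sen 2 could not be read from that library alone. In Sen 2 only 15.0% of the assigned Ribo-seq reads lay in coding sequence, in Pro 1 34.4% and in Sen 3 54.7%, against 77.8% to 88.8% in Pro 2, Pro 3 and Sen 1. The labels were checked with 5 genes: in mRNA CDKN1A (p21) was higher in Sen by 1.60 on the log2 scale and CDKN2A (p16) by 0.62, while MKI67 fell by 2.30, LMNB1 fell by 2.84 and HMGB1 fell by 1.38. Of 10 fibroblast markers, 9 exceeded 10 CPM in every RNA-seq library. SFTPC of alveolar epithelium, CDH5 of endothelium and CD3E of T cells were at 0 in all of them. The 5 endothelial markers had a sum of 54.4 to 62.1 CPM in the Pro libraries and of 93.7 to 106 CPM in the Sen libraries, of which TEK alone made 53.8 to 105 CPM, and the 5 immune markers summed to 19.3 to 21.4 and 31.8 to 34.7 CPM, nearly all from CD68. The 4 smooth muscle or pericyte markers summed to 128 to 140 CPM in Pro and to 98.7 to 133 CPM in Sen. Of these, 3 (MYH11, DES and CSPG4) exceeded 10 CPM in every RNA-seq library. The part of all these sums in the results below was not tested. In cultures measured as a whole, fewer expressing cells and less RNA per cell cannot be told apart.

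Positions are given in GRCh37, with the GENCODE lift of release 44. HGF (ENSG00000019991) is on chromosome 7 from 81328326 to 81399754, minus strand, and PDGFA (ENSG00000197461) on chromosome 7 from 536895 to 559933, minus strand. Chromosome 4 holds 4 of them, namely FGF2 (ENSG00000138685) from 123747837 to 123819391 and EREG (ENSG00000124882) from 75230862 to 75254466 on the plus strand, and VEGFC (ENSG00000150630) from 177604689 to 177714076 and PDGFC (ENSG00000145431) from 157681606 to 157892951 on the minus strand. FGF7 (ENSG00000140285) is on chromosome 15 from 49715434 to 49780972, plus strand, and VEGFA (ENSG00000112715) on chromosome 6 from 43737921 to 43754224, plus strand. HBEGF (ENSG00000113070) is on chromosome 5 from 139712428 to 139726188, minus strand, and NRG1 (ENSG00000157168) on chromosome 8 from 31496738 to 32713184, plus strand. The genome build used for the deposited counts is not given in the sources used here, so these positions describe the genes and not the authors' counting regions.

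In the canonical transcripts the letters ATTTA occurred in every one of the 10 3′UTRs, read on the transcript strand with overlapping matches counted, at 2.29 (PDGFA) to 6.08 (FGF7) per kb, and with a single match in the short 3′UTR of VEGFC (391 bases), against a median of 1.66 per kb and an occurrence in 70.6% of 15458 coding genes. The 5′UTR of FGF7 carried 7 ATG triplets upstream of the start, VEGFC and PDGFA carried 3 each, PDGFC 2 and NRG1 1, while the other 5 had none. At least 1 upstream ATG was present in 42.0% of all the coding genes. These are counts of letters and say nothing of use by the ribosome. Coding starts are printed below for the 3 genes whose start decides which reads fall in coding sequence: FGF2 and VEGFA have an annotated CTG start upstream of their ATG, and FGF7 carried many footprints before its ATG. Each line gives the first 30 coding bases of a GENCODE transcript with the start codon in capitals.

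FGF2 canonical start: ATGgcagccgggagcatcaccacgctgccc

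FGF2 upstream CTG start: CTGgtgggtgtggggggtggagatgtagaa

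VEGFA annotated CTG start: CTGacggacagacagacagacaccgccccc

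VEGFA in-frame ATG: ATGaactttctgctgtcttgggtgcattgg

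FGF7 start: ATGcacaaatggatactgacatggatcctg

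The CTG of FGF2 lies 133 codons before the in-frame ATG, which lengthens the coding sequence from 0.465 to 0.864 kb, and the CTG of VEGFA lies 180 codons before its ATG. Only 0.220% of the coding genes open with a codon other than ATG in their canonical transcript. In the deposited counts the 5′UTR of FGF2 held 0.0517% of its mRNA reads in Pro and 0.0613% in Sen, although the canonical transcript has a 5′UTR of 344 bases.

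All 10 growth factors passed the threshold in mRNA, 6 higher and 4 lower in Sen. EREG was admitted to the test only through its Sen libraries, since its Pro counts alone would not have met the read filter. NRG1 rose most, followed by EREG and FGF2, and smaller rises were measured for VEGFC, HBEGF and PDGFC. PDGFA, FGF7 and HGF fell, and VEGFA fell by the smallest amount. The states did not overlap for any of the 10. Both counts have to be read against the whole transcriptome, where 73.6% of 12787 tested genes were called, 36.6% higher and 37% lower, and where 67.8% had states that did not overlap, 33.5% with Sen higher and 34.2% with Sen lower. The median log2 fold change of the 10 was 0.54, against -0.01 over all genes tested. At an adjusted p under 0.05, 9 of the 10 were called, against 65.1% of all genes.

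**Figure D1:**
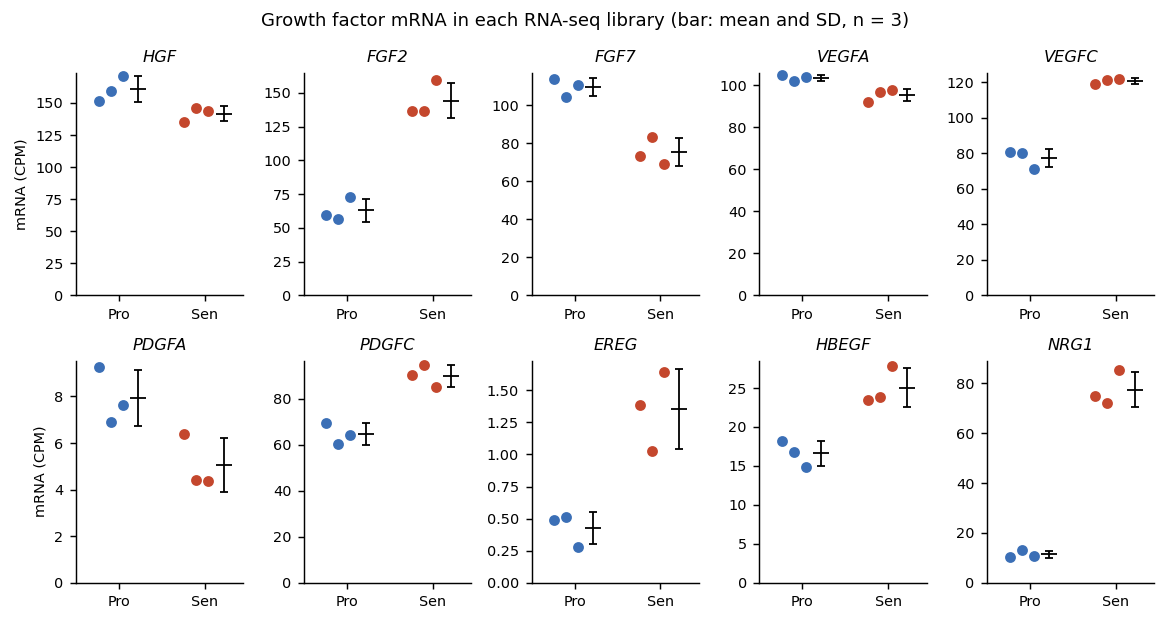
mRNA level in CPM (y axis, from 0) of each of the 10 growth factors in the 3 Pro (blue) and 3 Sen (red) RNA-seq libraries, 1 panel per gene, with the black mark and bar giving the mean and SD of n = 3. In every panel the 3 Pro points lie wholly above or wholly below the 3 Sen points. As a fold the gap is widest for NRG1 (11.4 against 77.5 CPM on average) and narrow for VEGFA (103 against 95.4 CPM). In CPM the gap of FGF2 (63.0 against 144 CPM) is wider than that of NRG1.

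HGF was the member with the most reads. Its mRNA stood at 151, 160 and 171 CPM in Pro 1 to 3 and at 135, 146 and 144 CPM in Sen 1 to 3. Every Sen library was thus below every Pro library. The log2 fold change was -0.18 ± 0.07 (SE, n = 3 per state, adjusted p = 0.0314). Its footprints numbered 11, 249 and 623 reads in Pro and 371, 14 and 116 in Sen, which made 191, 370 and 371 CPM against 249, 246 and 225.5 CPM. The shallow Pro 1 library lay below all 3 Sen libraries, while Pro 2 and Pro 3 lay above them. In the fit, which weights libraries by their reads, HGF footprints fell by 0.56 ± 0.16 on the log2 scale (SE, adjusted p = 0.00376). Without Pro 1 the value was -0.68 (adjusted p = 2.77e-05), and without Pro 3, which holds the most reads, it was -0.45 and no longer past the threshold (adjusted p = 0.173).

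FGF2, the basic fibroblast growth factor, which leaves the cell without a signal peptide, and FGF7, the keratinocyte growth factor that fibroblasts supply to epithelium, moved in opposite directions. FGF2 mRNA was at 59.6, 56.8 and 72.6 CPM in Pro and at 137, 137 and 159 CPM in Sen. All 3 Sen libraries lay far above the Pro libraries, and the level was 2.29-fold higher (log2 1.19 ± 0.09, SE, adjusted p = 1.32e-10). Its 3′UTR, which held 73.3% of its mRNA reads in Pro and 75.1% in Sen, shares 706 exon bases with NUDT6 on the opposite strand. Since the strand rule of the counting is not given in the sources used here, reads of the pair cannot be told apart there, and with CDS reads alone the change was 1.12 (adjusted p = 3.80e-06). FGF2 footprints numbered 2, 22 and 47 in Pro and 70, 2 and 18 in Sen. They corresponded to 34.7, 32.6 and 28.0 CPM against 46.9, 35.2 and 35.0 CPM, where Pro 1 and Sen 2 rest on 2 reads each and the 4 deep libraries kept the order of the states. The rise of 0.52 ± 0.29 (SE) passed at an adjusted p of 0.134, and it no longer passed in 11 of 14 alternatives, among them the fits without Pro 1, Pro 2, Pro 3 or Sen 1 (0.48, 0.57, 0.38 and 0.25, with adjusted p from 0.153 to 0.747).

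FGF7 mRNA was at 114, 104 and 111 CPM in Pro and at 73.3, 83.2 and 69.2 CPM in Sen. No Sen library reached the lowest Pro library, and the log2 fold change was -0.54 ± 0.08 (SE, adjusted p = 3.49e-06), a level 1.45-fold higher in Pro. Of its nonzero region counts 54.3% were not whole numbers, the highest share among the members, and GENCODE lists 6 FGF7 pseudogenes. Fractional counts arise when a read is divided between features, so the level of FGF7 is less certain than that of a gene with whole counts. FGF7 footprints numbered 3, 31 and 64 in Pro and 36, 2 and 20 in Sen. In CPM they came to 52.1, 46.0 and 38.2 against 24.1, 35.2 and 38.9, with Sen 3 just above Pro 3. The change of -0.52 ± 0.30 (SE) missed the threshold (adjusted p = 0.156), with an interval of 2 SE from -1.11 to 0.08.

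VEGFA, the main ligand for the growth of blood vessels, and VEGFC, which acts mostly on lymphatic vessels, also parted. VEGFA mRNA was at 105, 102 and 104 CPM in Pro and at 92.2, 96.7 and 97.4 CPM in Sen. The libraries of the states did not overlap, but the step between the nearest of them was small beside the level. The log2 fold change of -0.12 ± 0.07 (SE) passed narrowly (adjusted p = 0.149) and was lost in 10 of 15 alternatives, with CDS reads alone at -0.02 (adjusted p = 0.870). VEGFA footprints numbered 3, 28 and 60 in Pro and 44, 0 and 13 in Sen, which made 52.1, 41.6 and 35.8 CPM against 29.5, 0 and 25.3 CPM. Sen 1 and Sen 3 lay below the Pro libraries, whereas Sen 2 cannot be placed, since 0 reads there allow a level of up to 52.7 CPM, counting error only. The change of -0.49 ± 0.30 (SE) was not past the threshold (adjusted p = 0.192).

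VEGFC mRNA was at 80.6, 80.4 and 71.3 CPM in Pro and at 119, 122 and 122 CPM in Sen. It was 1.56-fold higher in Sen, with a log2 fold change of 0.64 ± 0.07 (SE, adjusted p = 9.52e-08), and it passed in 15 of 15 alternatives. Footprints of VEGFC numbered 3, 42 and 105 in Pro and 123, 4 and 37 in Sen, or 52.1, 62.3 and 62.6 CPM against 82.4, 70.3 and 71.9 CPM. The deep Sen libraries lay above the deep Pro libraries, and the shallow ones rest on 3 and 4 reads. The log2 fold change of 0.34 ± 0.21 (SE) missed the threshold in the fit (adjusted p = 0.192) and in each of 14 alternatives.

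PDGFA and PDGFC, ligands of PDGF receptor alpha, differed in level as well as in direction. PDGFA mRNA was low, at 9.28, 6.92 and 7.63 CPM in Pro and at 6.38, 4.40 and 4.39 CPM in Sen, from 48 to 82 reads per library. It fell by 0.66 ± 0.17 on the log2 scale (SE, adjusted p = 0.00187). With CDS reads alone the value was -0.41 and did not pass (adjusted p = 0.170). PDGFA footprints numbered 0, 5 and 8 in Pro and 8, 0 and 0 in Sen, too few to be tested. PDGFC mRNA was at 69.6, 60.3 and 64.3 CPM in Pro and at 90.2, 94.7 and 85.0 CPM in Sen. The states were well apart, and PDGFC was 1.39-fold higher in Sen (log2 0.48 ± 0.08, SE, adjusted p = 1.20e-05). Its footprints numbered 1, 24 and 76 in Pro and 78, 2 and 36 in Sen, or 17.4, 35.6 and 45.3 CPM against 52.3, 35.2 and 70.0 CPM. The shallow Sen 2 library fell within the Pro range, while Sen 1 and Sen 3 lay above it. The rise of 0.47 ± 0.25 (SE) passed at an adjusted p of 0.130 but was lost in 10 of 14 alternatives, among them the fits without Pro 1, Pro 2, Sen 1 or Sen 3 (0.38, 0.37, 0.69 and 0.33, with adjusted p from 0.1503 to 0.422).

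The 3 EGF-family ligands all rose in mRNA. NRG1, whose products bind ERBB3 and ERBB4, was at 10.4, 13.1 and 10.6 CPM in Pro and at 74.9, 72.3 and 85.4 CPM in Sen. This was the largest change among the members, 6.76-fold higher in Sen (log2 2.76 ± 0.10, SE, adjusted p = 1.38e-15). Its exons share 1835 bases with the transcript RP11-1002K11.1 on the same strand, and with CDS reads alone the change was 2.75. NRG1 footprints numbered 0, 5 and 11 in Pro and 93, 2 and 28 in Sen, or 0, 7.42 and 6.56 CPM against 62.3, 35.2 and 54.4 CPM. Sen 1 and Sen 3 lay far above Pro 2 and Pro 3, while 0 reads in Pro 1 and 2 in Sen 2 place neither shallow library. The log2 fold change in footprints was 3.11 ± 0.36 (SE, adjusted p = 3.83e-11), and it passed in 14 of 14 alternatives, between 2.95 and 3.16. NRG1 met the read filter for footprints only through its Sen libraries. With every gene of at least 1 read admitted, the value was 3.10 (adjusted p = 1.95e-14).

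HBEGF, a ligand of EGFR and ERBB4, was at 18.2, 16.8 and 14.9 CPM in Pro and at 23.4, 23.9 and 27.9 CPM in Sen. Its mRNA was 1.52-fold higher in Sen (log2 0.60 ± 0.11, SE, adjusted p = 4.34e-05). HBEGF footprints numbered 0, 4 and 26 in Pro and 28, 0 and 11 in Sen, with no read in either shallow library, and the gene was not tested in footprints. EREG, which binds EGFR and ERBB4, was the least expressed member, with 4, 6 and 3 mRNA reads in Pro and 13, 14 and 18 in Sen. That corresponded to 0.49, 0.51 and 0.28 CPM against 1.38, 1.03 and 1.65 CPM. The states did not overlap, and the log2 fold change was 1.62 ± 0.38 (SE, adjusted p = 0.000824). As its Sen libraries decided its entry to the test, this p-value carries that selection. With every gene of at least 1 read admitted, the value was 1.61 (adjusted p = 0.00117). Most EREG reads came from the 3′UTR, 92.3% in Pro and 84.4% in Sen, and only 1 coding read in Pro and 3 in Sen were counted in all. With 3 footprints over all 6 Ribo-seq libraries, translation of EREG was not detectable at this depth.

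In footprints, 7 of the 10 members had enough reads to be tested and 4 were called, NRG1, FGF2 and PDGFC higher and HGF lower. Over all genes 54.4% of 7521 were called, 27.5% higher and 26.9% lower. Under library totals without scaling factors the share of higher genes among those called was 39.1% in place of 50.5%. The 3 untested members were PDGFA, EREG and HBEGF, and with every gene of at least 1 read admitted to the fit their values were -0.53, -0.61 and 0.62, with adjusted p of 0.617, 0.773 and 0.292. The fitted values of all 7 tested members had the sign of their mRNA change, whether or not they passed. At an adjusted p under 0.05 only HGF and NRG1 were called among them, against 41.8% of all genes.

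**Figure D2:**
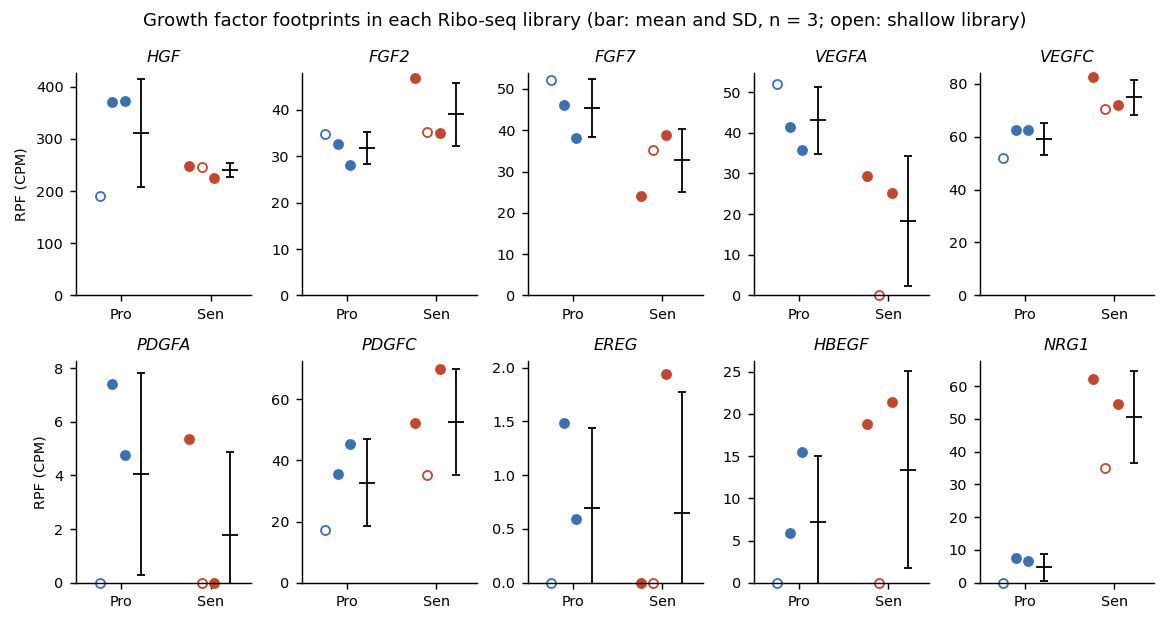
Footprint level in CPM over coding sequence (y axis, from 0) of each growth factor in the 3 Pro (blue) and 3 Sen (red) Ribo-seq libraries, with open points for the shallow libraries Pro 1 and Sen 2, and the mean and SD of n = 3 as a black mark and bar, cut off at 0. As a fold, NRG1 shows the widest gap between the deep libraries, 7.42 and 6.56 CPM in Pro against 62.3 and 54.4 CPM in Sen. In CPM the gap of HGF is wider, 370 and 371 in Pro against 249 and 225.5 in Sen. For PDGFA, EREG and HBEGF the points of the states overlap.

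Translation efficiency (TE) is the change of footprints beyond the change of mRNA, tested as the interaction of library type and state with the lysate as a block. None of the 7 tested members passed by edgeR's quasi-likelihood test, against 9.37% of 7473 genes, and none had an unadjusted p under 0.05. DESeq2 made no call among them, but its adjusted p was 0.999 for each of the 7, a flat value that does not tell the members apart. The smallest adjusted p was that of FGF2, 0.275, with a log2 change of -0.57 ± 0.29 (SE) and an interval of 2 SE from -1.15 to 0.01. Its log2 ratio of footprints to mRNA was -0.46, -0.77 and -1.36 in Pro and -1.54, -1.64 and -2.15 in Sen. The ratio of FGF2 was the lower one in Sen as counted, with 2 footprints each behind Pro 1 and Sen 2, but the fit did not separate this from the spread. In 1 of 15 alternatives, without the lysate block, FGF2 did pass at -0.65 (adjusted p = 0.143). The ratios of VEGFA and VEGFC were likewise lower in every Sen library than in every Pro library, with 0 VEGFA footprints in Sen 2. VEGFA was at -0.35 (adjusted p = 0.559, interval -0.95 to 0.24) and VEGFC at -0.35 (adjusted p = 0.417, interval -0.79 to 0.10). HGF was at -0.32 ± 0.17 (SE, adjusted p = 0.310, interval -0.66 to 0.02). In 4 of 16 alternatives HGF did pass, at -0.37 to -0.46, including the fits without Pro 1 (-0.43, adjusted p = 0.0889) and without both shallow libraries (-0.37, adjusted p = 0.137), where 13.1% of all genes were called. NRG1 was at 0.36 (interval -0.52 to 1.23), FGF7 at 0.06 (interval -0.53 to 0.65) and PDGFC at -0.02 (interval -0.54 to 0.50). The intervals of NRG1, FGF7 and PDGFC leave room for sizeable changes in either direction. Those of FGF2, VEGFA, VEGFC and HGF lie mostly on the negative side.

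**Figure D3:**
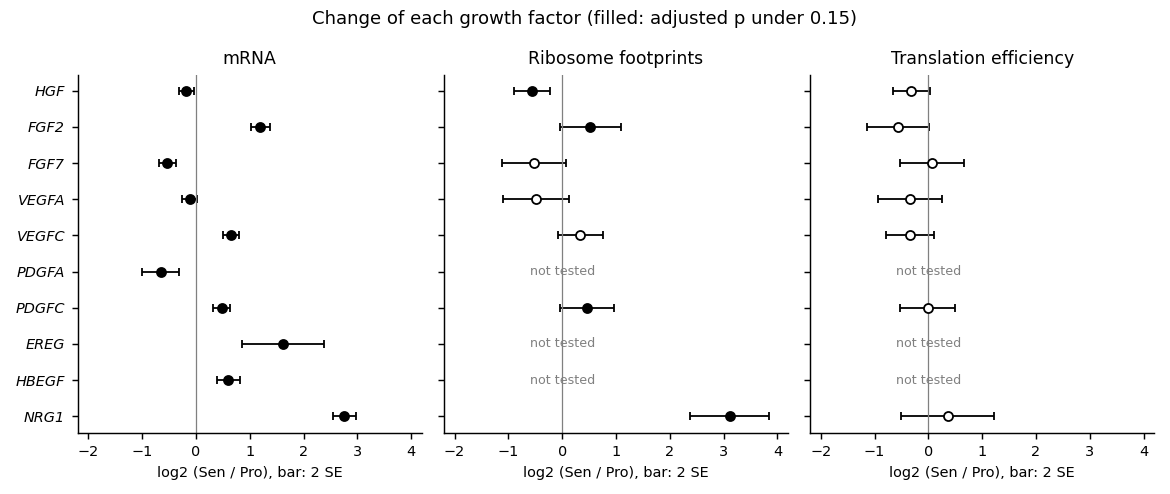
Log2 fold change of Sen over Pro (x axis) for each growth factor in mRNA, footprints and translation efficiency, with bars of 2 SE from the fit (n = 3 per state) and filled points for an adjusted p under 0.15. All 10 mRNA points are filled, 4 of 7 footprint points are filled, and none of the 7 efficiency points is, with NRG1 farthest to the right in mRNA (2.76) and footprints (3.11).

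Levels were compared between members per kb of the coding length of the canonical transcript, with CDS reads alone. In the RNA-seq libraries of Pro, FGF7 stood highest at 126 ± 12 CPM per kb (SD, n = 3), followed by VEGFC (76.9 ± 3.53) and HGF (75.0 ± 2.48), whose libraries overlapped. FGF2 (56.5 ± 7.81) and VEGFA (55.6 ± 2.64) came next and overlapped too. PDGFC (48.4), HBEGF (12.3), PDGFA (7.89), NRG1 (4.35) and EREG (0.0872 CPM per kb) followed, each apart from its neighbour. In Sen the order began with FGF2 (124 ± 22.7) and VEGFC (119 ± 4.55), which overlapped, then FGF7 (85.7 ± 7.45), HGF (68.1 ± 2.16) and PDGFC (67.0 ± 4.86), of which the last pair overlapped. NRG1 moved from ninth to seventh place, above HBEGF and PDGFA. The place of FGF2 depends on its coding length, since with the longer CTG form its RNA-seq level was 30.4 CPM per kb in Pro and 66.7 in Sen. For VEGFA the length used, 1.185 kb, was that of its CTG form. For the same reads, the shorter length from its ATG would give a higher level per kb, so its place depends on this choice too.

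In footprints per coding kb HGF led in both states, at 142 ± 47.5 CPM per kb in Pro and 110 ± 5.80 in Sen (SD, n = 3). In Pro its range overlapped with that of FGF7 (78.0 ± 12) only through the shallow Pro 1. There HGF was at 87.4 CPM per kb from 11 reads and FGF7 at 89.4 from 3 reads. In Sen HGF stood apart from FGF2 (83.9 ± 14.7). With the longer CTG form FGF2 was at 45.2 CPM per kb in Sen, below VEGFC (59.4), FGF7 (56.2) and PDGFC (50.7). NRG1 went from 2.43 ± 2.11 CPM per kb in Pro, where its libraries overlapped with those of PDGFA and EREG, to 26.4 ± 7.27 in Sen, where they overlapped with those of HBEGF, so that its place was not resolved. As a share of all footprints on the 10 genes, HGF made 56.5% ± 7.49 in Pro and 46.3% ± 6.63 in Sen, and NRG1 made 0.765% ± 0.666 and 9.54% ± 1.67. In mRNA reads of the 10, HGF made 26.1% ± 1.47 in Pro and 18.3% ± 0.383 in Sen, FGF7 17.8% and 9.70%, FGF2 10.2% and 18.6%, and NRG1 1.85% and 9.98%. The mixture therefore held more FGF2 and NRG1 and less HGF and FGF7 mRNA in Sen. The summed mRNA of the 10 was 615 ± 13.6 CPM in the Pro libraries and 777 ± 21.9 CPM in the Sen libraries. Their summed footprints were 539 ± 121 and 524 ± 59.2 CPM, but these means include the shallow libraries Pro 1 (399 CPM) and Sen 2 (457 CPM). The deep libraries stood at 610 and 609 CPM in Pro and at 570 and 544 CPM in Sen.

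FGF7 had an unusual distribution of footprints along its transcript. In the deep Pro libraries more footprints lay in its 5′UTR than in its CDS, 42 against 31 reads in Pro 2 and 86 against 64 in Pro 3. The share of 5′UTR reads was 57.5% (95% Wilson interval 46.1 to 68.2) and 57.3% (49.3 to 65.0). The median share over the 2765 and 5498 genes with at least 50 reads was 0.800% and 0.877%, and 0.506% and 0.382% of these genes had a share as high as FGF7. In Sen 1 the share was 29.4% (18.7 to 43.0) from 51 reads and in Sen 3 it was 25.9% (13.2 to 44.7) from 27 reads. The shallow libraries gave 0 of 3 reads in Pro 1 and 1 of 3 in Sen 2, and over all 6 libraries the exact two-sided permutation test gave p = 0.8, where 3 against 3 cannot go below 0.1. In RNA-seq the 5′UTR share of FGF7 was 43.7% to 52.8% in Pro and 43.9% to 45.7% in Sen, so the region was well covered in the mRNA of both states. Reads of FGF7 and of its copies cannot be told apart in these counts.

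A test of 5′UTR against CDS footprints over genes, added after the data were seen, could not include FGF7 with the shallow libraries. Without them FGF7 was at -0.89 ± 0.52 on the log2 scale (SE, adjusted p = 0.335, 846 genes tested, 12.1% called), which did not pass. The pooled 5′UTR share of all Ribo-seq reads over mRNA regions meanwhile went from 2.78% and 3.70% in the deep Pro libraries to 4.89% and 13.8% in the deep Sen libraries, while the median share over genes was 0.653% in Sen 1 and 0% in Sen 3, below that of the deep Pro libraries. VEGFC, with 3 upstream ATGs, had 39 of 353 footprints in its 5′UTR (11.0%), and PDGFC, with 2, had 43 of 260 (16.5%). NRG1, with 1, had 3 of 142 (2.11%). Of the members with none, VEGFA had 12 of 160 (7.50%), HBEGF 3 of 72 (4.17%), HGF 10 of 1394 (0.717%) and FGF2 1 of 162 (0.617%). PDGFA, with 3, had 2 of 23 (8.70%). The share of FGF2 says little, since its 5′UTR held only 4 RNA-seq reads against 1730 in its CDS. As counted, the shares did not rise steadily with the number of upstream ATGs. That number comes from GENCODE transcripts and not from the authors' counting regions, so a link was not tested.

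**Figure D4:**
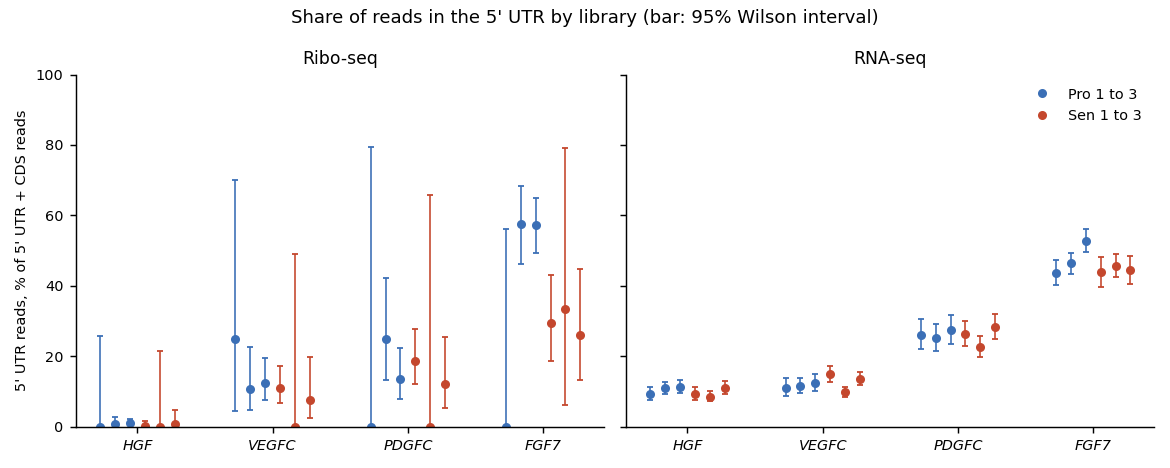
Share of 5′UTR reads among 5′UTR and CDS reads, in percent (y axis), for HGF, VEGFC, PDGFC and FGF7 in the Ribo-seq and RNA-seq libraries of Pro 1 to 3 (blue) and Sen 1 to 3 (red, from left to right), with 95% Wilson intervals for counting error. FGF7 footprints lie at 57.5% and 57.3% in Pro 2 and Pro 3 and at 29.4% and 25.9% in Sen 1 and Sen 3, while its RNA-seq shares lie between 43.7% and 52.8% in all 6 libraries, and the widest bars belong to the shallow libraries.

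The receptors that these ligands bind were present to very different degrees. MET, the receptor of HGF, rose from 58.2 ± 2.04 to 109 ± 3.57 CPM in mRNA (SD, n = 3, log2 0.90, adjusted p = 4.00e-10) and by 0.44 in footprints (adjusted p = 0.0628). FGFR1, a widely expressed FGF receptor, was at 289 and 277 CPM and did not pass (-0.06, adjusted p = 0.461). FGFR3 rose by 1.20 from 0.687 CPM, FGFR4 fell by 0.77 from 3.85 CPM, and FGFR2, whose IIIb form is the receptor of FGF7, had 1 to 6 reads per library and was not tested. FLT1 (VEGF receptor 1) rose from 4.34 ± 0.135 to 24.8 ± 1.91 CPM in mRNA (log2 2.50, adjusted p = 2.27e-13). KDR had at most 1 read and FLT4 at most 7 reads in a library, so the kinase receptors through which VEGFA and VEGFC mainly signal were near the floor. The VEGF co-receptor NRP1 fell by 1.32 in mRNA and fell by 1.29 in footprints, and NRP2 fell by 0.77 in mRNA and fell by 0.60 in footprints. PDGFRA did not pass in mRNA (0.04, adjusted p = 0.651), and PDGFRB fell by 0.34 in mRNA (adjusted p = 0.000558) without passing in footprints (-0.07, adjusted p = 0.762). EGFR did not pass (-0.07, adjusted p = 0.430) and ERBB2 rose by 0.20 (adjusted p = 0.0210). ERBB3 had 4 to 15 reads and ERBB4 0 to 2, so the kinases that bind NRG1 itself were at low level and not tested. In the list of 25 receptors and co-receptors, 19 were tested in mRNA, 9 were higher and 6 lower, with a median log2 fold change of 0.04, so that 78.9% were called against 73.6% of all genes.

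Among 23 other genes of the same ligand families, 9 were tested in mRNA, 7 were higher and 1 lower, with a median of 1.21. PDGFB and AREG met the read filter only through their Sen libraries, so the count of higher genes and the median partly follow from that filter. The called share of 88.9% stands against 73.6% of all genes, 36.6% higher and 37% lower. PDGFB, the B chain of PDGF, had 4, 0 and 1 reads in Pro and 82, 134 and 117 in Sen, a fitted log2 fold change of 5.81 ± 0.35 (SE, adjusted p = 3.52e-12). Since its Pro counts lie near the floor, that fold is imprecise. AREG, another EGF-family ligand, had 0, 2 and 0 reads in Pro and 14, 29 and 30 in Sen, at least 5.79-fold higher against a floor of 3 reads per library. FGF1 rose from 12.5 ± 1.43 to 39.8 ± 2.09 CPM (log2 1.68, adjusted p = 3.83e-12), and PDGFD fell from 23.4 ± 2.97 to 5.42 ± 1.01 CPM (-2.14, adjusted p = 1.60e-11). Footprints of PDGFD fell by 1.66 (adjusted p = 0.00110), the only call among the 2 of these ligands tested there.

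Among 26 genes of ligand processing and release, 22 were tested in mRNA, 13 were higher and 6 lower, with a median of 0.29, or 86.4% called against 73.6% of all genes. PLAT, the tissue plasminogen activator, rose from 200 ± 8.99 to 1118 ± 49.4 CPM in mRNA (log2 2.48) and by 2.62 in footprints. The proprotein convertase PCSK5 rose by 1.97 in mRNA (adjusted p = 1.83e-10) and by 1.93 in footprints, and its relative PCSK6 went from 0 to 2 reads in Pro to 62 to 90 reads in Sen, at least 18.6-fold higher. SULF1, a sulfatase that trims heparan sulfate on which FGF2, VEGFA and HGF are held, fell by 1.35 both in mRNA and in footprints. RHBDF2, a partner of the sheddase ADAM17, fell by 1.33 in mRNA and SPINT1, an inhibitor of HGF-activating proteases, fell by 1.11 ± 0.37 (SE, adjusted p = 0.0125). SPINT1 had only 12, 20 and 19 reads in Pro and 5, 5 and 16 in Sen, and met the read filter only through Pro. Its Sen 3 library lay barely under Pro 1 (1.462 against 1.465 CPM). ADAM17 itself, which frees HBEGF, EREG and NRG1, fell by 0.31 in mRNA (adjusted p = 0.00295) and by 0.68 in footprints (adjusted p = 0.0302).

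The 22 feedback and target genes of receptor tyrosine kinase to ERK signalling were all tested in mRNA, and 13 were higher and 5 lower, with a median of 0.24, or 81.8% called against 73.6% of all genes. DUSP6, a phosphatase that inactivates ERK, rose from 30.7 ± 5.49 to 79.3 ± 3.98 CPM in mRNA (log2 1.36, adjusted p = 5.96e-11) and by 1.8 in footprints. DUSP4 of the same family rose by 2.30 from 0.951 CPM, and SPRED3 by 0.995. LRIG3 fell by 1.87 in mRNA and fell by 2.20 in footprints, EGR1, an immediate early transcription factor, fell by 1.52 in mRNA and fell by 1.70 in footprints, and IL17RD, an inhibitor of FGF signalling, fell by 1.21 in mRNA. Known feedback inhibitors and target genes thus moved in both directions. Over the 4 lists 60 of 72 genes tested in mRNA were called, 42 higher and 18 lower, or 83.3% against 73.6% of all genes, and in footprints 30 of 46, or 65.2% against 54.4%. Some genes low in Pro, among them PDGFB, AREG, PCSK6, DUSP4 and FGFR3, met the read filter in mRNA only through their Sen libraries.

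**Figure D5:**
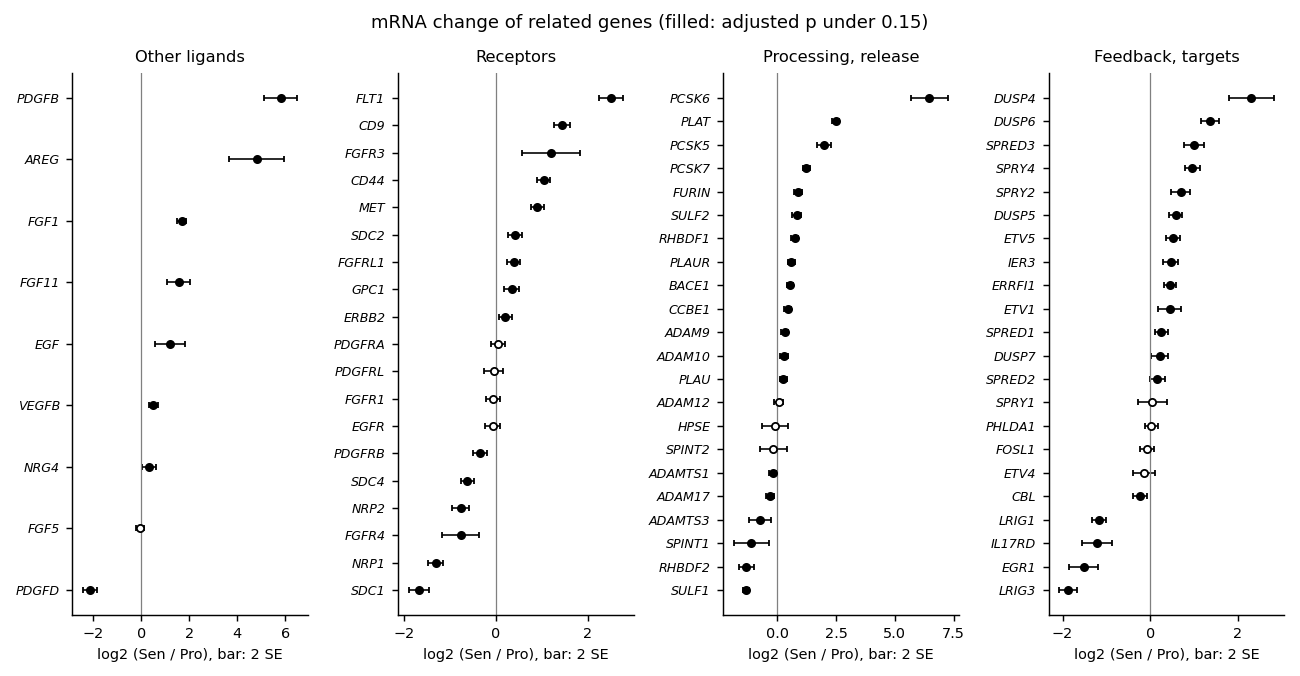
Log2 fold change of mRNA in Sen over Pro (x axis) for the tested genes of the 4 lists, in 1 panel each, with bars of 2 SE from the fit and filled points for an adjusted p under 0.15. PDGFB, FLT1 (2.50), PCSK6 and DUSP4 (2.30) lead their panels, where the fitted folds of PDGFB, AREG and PCSK6 rest on at most 4 reads in a Pro library.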

How the data were processed

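The study profiled proliferating and senescent IMR90 fibroblasts by Ribo-seq and RNA-seq from shared lysates. The authors deposited expected counts, which need not be whole, per gene symbol and transcript region (5′UTR, CDS, 3′UTR). The submitters' processing notes name cutadapt 1.18, Bowtie 1.0.1, SAMtools 1.8 and DESeq2 1.22.2. The genome build, the annotation, the strand rule and the treatment of reads with several matches are not given in the sources used here. The file names of the Pro RNA-seq libraries carry a tag for a solvent that no label mentions, and its meaning was not settled.

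Region counts were summed (mRNA: 5′UTR, CDS and 3′UTR, RPF: CDS) and rounded to whole numbers. Tests used 16451 gene symbols with at least 1 CDS read and, on these, edgeR 4.0.16 in R 4.3.3 (filterByExpr, TMM factors within each library type, glmQLFit and glmQLFTest), with Benjamini-Hochberg adjustment over all genes tested and a threshold of 0.15, the false discovery rate of the published methods, whose tool anota2seq was not used here. TE was the interaction of library type and state with the lysate as a block. The lysate pairing comes from the extraction protocol, and deviations of the paired libraries correlated at -0.05 to 0.07. P-values measure the spread between the 3 cultures of each state. Ratios per lysate added 0.5 to each count. Wilson intervals have a confidence level of 95% and, like the floor of 3 reads, cover counting error only. The scripts were tested on simulated counts with known changes.

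The 10 members, the 4 lists of related genes, the markers and the tests were chosen with earlier results of these data known. Named besides the members are the kinase receptors of their families and the neuropilins, tested or at low counts, and the 3 highest and 3 lowest called genes of each other list whose states did not overlap. ADAM17 and the low-count receptors were named after their values were seen. Sequences and UTR features come from the GENCODE lift of release 44 to GRCh37. Alternatives were RLE factors or library totals, DESeq2 1.42.0, voom from limma 3.58.1, looser and stricter count filters, CDS reads alone, RNA-seq thinned to Ribo-seq depth, the replicate number as a block, TE without the lysate block, a threshold of 0.05, each library left out and both shallow Ribo-seq libraries left out.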

Additional observations from a re-analysis of the deposited data

Results flagged for a closer look

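Footprints in the 3′UTR entered no comparison above. For FGF2 they numbered 10 over the 3 Sen libraries, 6, 2 and 2 reads in Sen 1 to 3, and 0 in each of the 3 Pro libraries. This was picked out because every Sen library held such reads and no Pro library did. The deep Sen libraries also held a smaller share of all their reads in coding sequence, 77.8% and 54.7% against 84.4% and 88.8% in Pro. Other members were mixed in 3′UTR footprints. NRG1 had none in Pro and 2, 0 and 1 in Sen, and PDGFC 0, 3 and 1 in Pro and 1, 1 and 0 in Sen. The FGF2 difference was not tested and its reads are few. The part of the overlapping gene NUDT6 or of the library difference in them was not tested.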

How the results depend on the processing

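In mRNA 136 of 147 recomputed member values kept their direction and their side of the threshold, and the other 11 kept their direction and were lost, 10 of them for VEGFA and 1 for PDGFA. Members called in mRNA ranged from 9 to 10 and related genes from 58 to 62 (of 60) when a library was left out. In footprints the 4 called members became 1 with DESeq2, 1 under the filter of 10 counts in each library (where only HGF was tested), and 2 each with every gene of at least 1 read, with the replicate number as a block, with voom and at a threshold of 0.05. They ranged from 2 to 4 when a library was left out, with 2 without Pro 2, Pro 3 or Sen 1. The 30 related genes called in footprints became 11 with DESeq2 and 18 with the replicate block, and ranged from 19 (without Sen 1) to 32. In TE the 0 called members became 1 under that filter, 2 with no replicate block for the lysate, 1 without the shallow libraries, and 0 to 1 when a library was left out (1 without Pro 1).

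TE of FGF7 changed sign with CDS reads alone (-0.0055) and without Pro 3 or Sen 3, with a range of -0.16 to 0.54 over the libraries left out, and TE of PDGFC with DESeq2 (0.087), voom (0.074) and without Pro 3, Sen 1 or Sen 2, with a range of -0.17 to 0.25. None of these values passed in any fit, and the cause was not tested. Library totals without factors moved the median of all genes by -0.11 in mRNA and -0.14 in footprints, and no member changed direction there. Pro and Sen libraries of the same number shared only that number, with correlations of -0.07 to 0.09. Each of 6 Ribo-seq libraries but only 2 of 6 RNA-seq libraries correlated best with its own number. Footprints of FGF7 passed in 5 of 14 alternatives and those of VEGFA in 2. The depth of the Ribo-seq libraries, 54421 CDS reads in the shallowest, limits the footprint and TE values.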
